A study of Mus musculus with 16 samples.

Results

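Protocadherins are a family of calcium-dependent cell adhesion proteins, and the genes described here are all entries of the count table whose symbol starts with Pcdh. There were 70 such genes among 57010 in the table. Of these, 14 belong to the alpha cluster (Pcdha), 22 to the beta cluster (Pcdhb), 22 to the gamma cluster (Pcdhg), and 12 are unclustered. The libraries came from microglia of the olfactory bulb of mice aged 2 months, isolated with magnetic beads against CD11b. Wild-type mice (WT, C57BL/6J) were compared with APP-NL-G-F knock-in mice (KI), whose endogenous App gene carries a humanised amyloid-beta sequence with the Swedish, Arctic and Iberian mutations in every cell of the body. Each genotype was represented by 4 libraries from females (WT f, KI f) and 4 from males (WT m, KI m), 16 in all, and no other allele or treatment is named for either group. The comparison asks how the transcriptome of olfactory bulb microglia differs between the genotypes early in the life of this amyloid model.

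Protocadherins bind their own kind on a facing membrane and are best known from neurons. Each gene of the clusters starts at its own promoter and first exon. The Pcdha and Pcdhg genes then splice to constant exons that all genes of the cluster share, while Pcdhb genes lack such exons. A neuron switches on a largely random set of cluster genes, which gives it a surface identity used to tell its own branches from those of other cells, and the C-type genes at the end of the Pcdha and Pcdhg clusters are expressed more uniformly. The unclustered genes include the delta protocadherins, which act in axon growth and synapse formation, and a few with special roles, such as Pcdh15 of the hair cell tip link and Pcdh12 of endothelial cells.

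The libraries held 9052932 to 18117286 counts, of which the Pcdh genes together took 0.0301 to 0.0645%, or 2866 to 7515 counts. The 10 microglia markers summed to 18870 to 22530 CPM in WT (CPM is the count scaled to the size of the library) and 18870 to 21990 in KI, and none was at 0 in all libraries. The 10 neuron markers were all detected too, at 354.4 to 496.5 summed CPM in WT and 434.1 to 664.7 in KI, and 7 of the 8 KI libraries lay above the highest WT library. The 6 neuroblast markers summed to 165.5 to 206 CPM in WT and 207.9 to 246.7 in KI, with all 8 KI libraries above the highest WT library. Sox4 gave most of this sum, with means of 142.7 CPM (SD 8.18) in WT and 157.1 (SD 13.1) in KI. Dcx had means of 16.33 and 26.7 CPM, and Cd24a 2.253 and 2.296. The entry named App, the targeted gene, read 370.2 to 461.8 CPM in WT and 387.4 to 422.2 in KI, so this count alone did not separate the labels. The paper states that the authors checked the group labels by looking for the knock-in mutations in the aligned reads. In bulk libraries, fewer or more cells of a type and less or more RNA per cell cannot be told apart. KI m replicate 3 stood at the lower end of every Pcdh class sum among the KI libraries, and WT m replicate 2 had the lowest total of all Pcdh genes among all libraries. WT f replicates 1 and 2 stood apart in markers of other cells, with the highest endothelial sums (163.1 and 199.9 CPM) and astrocyte sums (1059 and 1256 CPM) of all libraries and the lowest projection neuron sums (43.36 and 43.07 CPM). The labels do not say that each library is a separate animal, and p-values measure the spread between these libraries.

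A gene was tested when at least 5 counts were found in at least 8 of the 16 libraries. This held for 66 of the 70 genes: 12 of 14 Pcdha, 21 of 22 Pcdhb, all 22 Pcdhg and 11 of 12 unclustered genes. Of the 4 others, Pcdha1 had 0 to 9 counts per library, Pcdha4 and Pcdhb1 had 0 to 2 each, and Pcdh12, the endothelial member, had 1 to 7. Only 494 of the 5768 exonic bases of Pcdha4 lie outside the exons of other genes on the same strand, and the counting program drops reads that fall on more than 1 gene. In the Pcdha cluster a median of 46.4% of a gene's exonic bases was unshared in this sense, against 54.4% in Pcdhg, while no unclustered gene and few Pcdhb genes shared any. Counts of Pcdha and Pcdhg genes therefore come mainly from their variable first exons, and levels are compared between genes as CPM per kb of unshared exon.

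On this scale the Pcdhg genes were the highest class in WT libraries. Their WT means ran from 1.2 to 5.99 CPM per kb with a median of 1.99, and the median was 0.746 for the tested unclustered genes, 0.631 for Pcdha and 0.259 for Pcdhb. Pcdhgb2, a B-type gamma gene, led the family with 5.99 ± 1.04 (SD, n = 8), followed by the C-type gene Pcdhgc3 with 5.56 ± 0.869, a gap smaller than either SD. Pcdhga11 (4.17 ± 1.04) and Pcdhgb7 (4.09 ± 0.748) came next and differed from each other by less than their spread. Among the unclustered genes, Pcdh1, also known from airway epithelium, stood highest with 3.32 ± 0.722 CPM per kb. Pcdh10, called OL-protocadherin for its place in olfactory and limbic circuits, followed with 2.28 ± 0.261, and Pcdh9 with 2.17 ± 0.666, and both means lay within 1 SD of each other. Pcdhb22 was the highest Pcdhb gene with 1.27 ± 0.204, above Pcdhb17 with 0.643 ± 0.162, and Pcdhb3 was the lowest tested gene of the family with 0.0826 ± 0.0452. Pcdha12 (1.09 ± 0.399) and Pcdha10 (1.05 ± 0.386) headed the Pcdha cluster and did not differ beyond their spread. Depth behind these levels was uneven: the tested Pcdhb genes had a median of 210.0 counts over all 16 libraries, the Pcdha genes 407.5, the Pcdhg genes 1481.5 and the unclustered genes 4058.0. The order also depends on the scale, which divides by the merged exons of all annotated transcripts. This length was 17502 bases for Pcdh10 and 2778 unshared bases for Pcdhgb2. In plain CPM, Pcdh10 was the highest gene in WT with a mean of 39.94, and Pcdhgc3 the highest Pcdhg gene with 18.79.

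**Figure D1:**
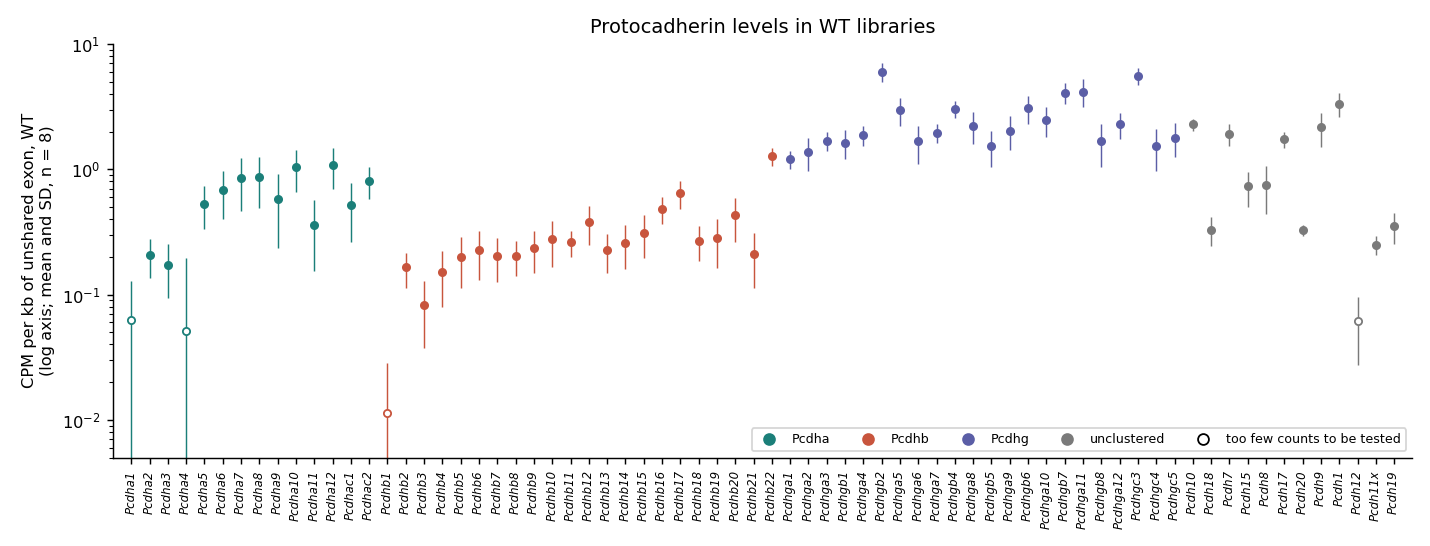
CPM per kb of unshared exon (log axis) for each of the 70 genes in the 8 WT libraries, as mean and SD, clusters in chromosomal order and the unclustered genes last. The Pcdhg genes form a plateau from 1.2 to 5.99, above nearly all Pcdha and Pcdhb genes, and the 4 open circles are the genes with too few counts to be tested.

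Over both sexes, 7 Pcdh genes rose in KI and none fell. The genes that rose were Pcdh9, Pcdh11x and Pcdh8 of the unclustered genes and Pcdhb9, Pcdhb16, Pcdhb18 and Pcdhb3 of the beta cluster, by log2 fold changes of 0.50 to 0.96. Calls required a false discovery rate (FDR) below 0.1, adjusted by Benjamini-Hochberg over all 18227 tested genes, and more than 0.5 in either direction on the log2 scale, in edgeR's quasi-likelihood test with sex as a term. The 7 genes are 10.6% of the 66 tested, against 4.33% of all tested genes called higher and 4.3% called lower. At an unadjusted p under 0.05, 27 Pcdh genes were higher and 0 lower, while 12.3% of all tested genes were higher and 11.8% lower at that level. The median log2 fold change of the 66 genes was 0.35, with 59 above 0, and that of all tested genes was -0.001. No Pcdh gene had WT and KI libraries that did not overlap, a separation reached by 0.137% of tested genes with KI above WT and 1.15% with KI below. The calls depended on single libraries: leaving out each in turn gave 1 to 19 called genes, with 1 without WT m replicate 2, KI m replicate 2 or KI f replicate 4, 2 without WT f replicate 1 or KI m replicate 1, 3 without KI f replicate 3, 4 without WT f replicate 2 or 3, 16 without WT f replicate 4 and 19 without KI m replicate 3. The share of all tested genes called in these 16 fits is not given here, so the counts describe the Pcdh calls alone. Without both WT f replicates 1 and 2, a choice made after the data were seen, 1 gene was called, Pcdh9 with 0.59 (FDR 0.0704 in edgeR's quasi-likelihood test), where 1.6% of all tested genes were called higher and 3.13% lower.

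**Figure D2:**
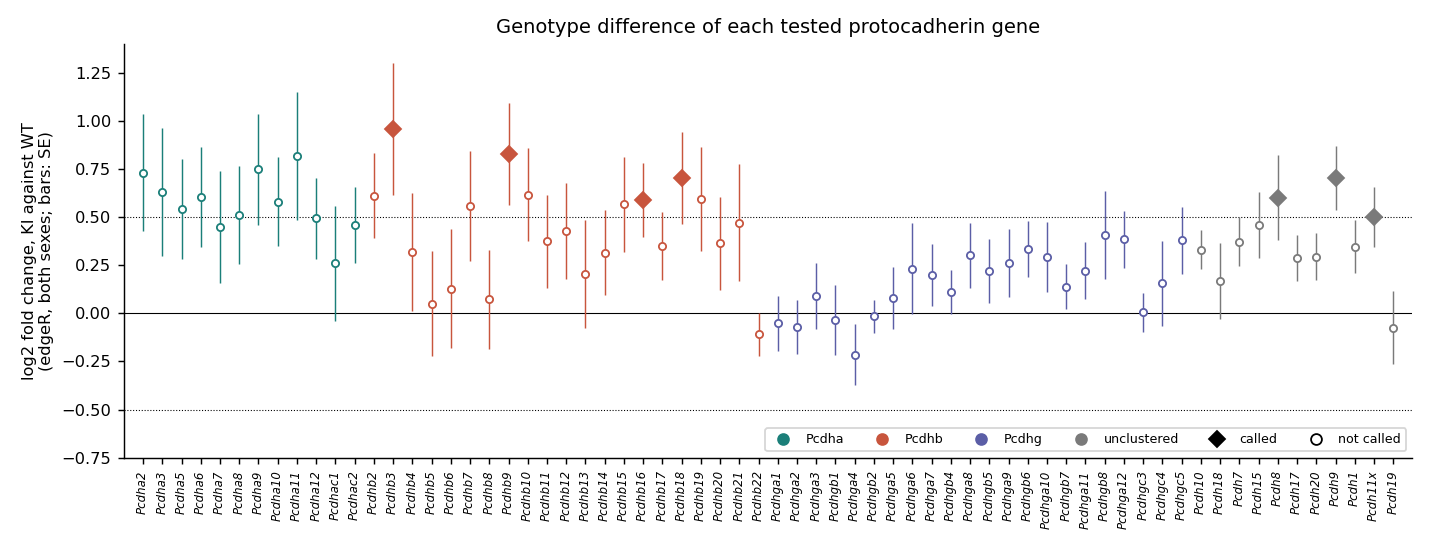
Log2 fold change of KI against WT over both sexes with its SE (edgeR) for the 66 tested genes, coloured by class, with filled diamonds for called genes and dotted lines at 0.5 and -0.5. Of 66 genes, 59 lie above 0, the 12 Pcdha genes among them, and 5 of the 7 below 0 are Pcdhg genes.

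Pcdh9, a delta1 protocadherin of neurons, gave the clearest difference of the family. It lies at chr14:93250846-94128152 on the minus strand of GRCm39, read 13.4 CPM in the lowest WT library, 19.7 at the median and 29 in the highest, and in KI read 20.8, 30.9 and 44.4. All 8 KI libraries were above the WT median and 4 were above every WT library. The log2 fold change was 0.70 (SE 0.165) with an FDR of 0.0116 in edgeR's quasi-likelihood test, and the call held in all 16 fits that left out 1 library, with values from 0.63 to 0.80. Pcdh11x, an X-linked delta1 protocadherin at chrX:119199956-119820316 (plus strand), read 2.36, 3.45 and 4.36 CPM in WT and 2.68, 5.12 and 6.28 in KI. Its KI libraries lay above every WT library in 7 of 8 cases, the exception being KI m replicate 3. The log2 fold change of 0.50 (SE 0.154, FDR 0.0482) sat at the fold threshold, and the call was kept in 9 of the 16 fits without 1 library.

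Pcdh8, also called arcadlin, is induced by neuronal activity and removes N-cadherin from the synaptic surface. It lies at chr14:80004215-80008752 on the minus strand, and 2108 of its 4538 exonic bases are overlapped by exons of genes on the other strand. Its levels were 1.16, 3.17 and 5.82 CPM in WT (lowest, median, highest) and 3.44, 5.23 and 7.47 in KI. All KI libraries exceeded the WT median, but only 2 exceeded the highest WT library, WT m replicate 1. The log2 fold change was 0.60 (SE 0.219, FDR 0.092), and the call was kept in 3 of the 16 fits without 1 library.

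Among the other unclustered genes, Pcdh10 and Pcdh7 passed the FDR threshold but not the fold threshold. Pcdh10 read 30, 40.4 and 45.5 CPM in WT and 33.7, 52.3 and 58.7 in KI, with 6 of 8 KI libraries above every WT library. Its log2 fold change was 0.33 (SE 0.101, FDR 0.0468), and KI m replicate 3, at 33.7, was far below the other KI males. Pcdh7, a delta1 protocadherin, read 26.1, 33.1 and 44.1 CPM in WT against 28.9, 47 and 54.4 in KI, a log2 fold change of 0.37 (SE 0.127, FDR 0.0737). Pcdh1, also of the delta1 group, gave 0.35 (SE 0.136, FDR 0.118) and Pcdh15 gave 0.46 (SE 0.172, FDR 0.102), neither of them called. Pcdh17 and Pcdh20 gave 0.29 each, with FDRs of 0.134 and 0.145, and Pcdh18 gave 0.17. Pcdh19, the X-linked delta2 gene mutated in a female-limited epilepsy, was the unclustered gene below 0, at -0.07 (SE 0.191), with WT at 1.85, 3.88 and 5.43 CPM and KI at 1.76, 3.66 and 4.59.

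The promoters of the cluster genes are known for a short element with the core letters CGCT, and the upstream bases of the called unclustered genes are shown with these letters marked. RefSeq promoter windows on GRCm38.p6 were at hand for 9 of the 70 genes, all unclustered, and 2 of these, Pcdh9 and Pcdh8, were called. The stretches printed are the 250 bases before the start, at chr14:93890680-93890929 for Pcdh9 and chr14:79771313-79771562 for Pcdh8, both on the minus strand and written 5′ to 3′. Capitals mark CGCT or its reverse complement AGCG, overlapping matches included.
Pcdh9: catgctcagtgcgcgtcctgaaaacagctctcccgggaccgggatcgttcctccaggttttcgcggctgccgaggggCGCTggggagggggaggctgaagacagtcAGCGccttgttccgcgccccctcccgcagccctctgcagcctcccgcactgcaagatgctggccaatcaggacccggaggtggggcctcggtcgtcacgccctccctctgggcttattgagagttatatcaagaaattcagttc
Pcdh8: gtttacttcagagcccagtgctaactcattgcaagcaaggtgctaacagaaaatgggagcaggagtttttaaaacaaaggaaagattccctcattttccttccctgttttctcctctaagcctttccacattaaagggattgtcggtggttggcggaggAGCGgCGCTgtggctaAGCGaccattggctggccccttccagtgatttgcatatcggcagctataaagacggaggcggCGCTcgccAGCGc
The Pcdh9 stretch holds 2 matches and the Pcdh8 stretch 5. All 10 windows of the 9 genes had at least 1 match, as did 55.7% of all 32851 windows. The GC content was 63.6% for Pcdh9 and 51.2% for Pcdh8, with a median of 52.4% over all windows. Over the 9 genes it ran from 42.4% (Pcdh20) to 69.2% (Pcdh19), and windows were not matched for GC content in this count. A match in these letters is a description and not a site of binding.

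The Pcdhb cluster held 4 of the 7 called genes, all at low counts. Pcdhb9 (chr18:37533908-37550127, plus strand) read 0.562, 0.774 and 1.42 CPM in WT and 0.587, 1.65 and 2.17 in KI. Of the 8 KI libraries 7 lay above the WT median and 5 above the highest WT library, while KI m replicate 3 fell near the lowest WT library. The log2 fold change was 0.83 (SE 0.263, FDR 0.0552), from 6 to 29 counts per library. Pcdhb16 (chr18:37610867-37616091) read 1.62, 2.67 and 3.25 CPM in WT and 2.34, 3.84 and 5.27 in KI. In 6 of 8 KI libraries it was above every WT library, and the 2 low ones were KI f replicates 1 and 2. Its log2 fold change was 0.59 (SE 0.193, FDR 0.0619).

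Pcdhb18 (chr18:37622518-37627558) read 0.843, 1.41 and 1.9 CPM in WT against 1.09, 2.4 and 3.39 in KI, with 5 KI libraries above the highest WT library. Its log2 fold change was 0.70 (SE 0.24, FDR 0.0738). Pcdhb3 (chr18:37433852-37437638) was the thinnest called gene, with 1 to 13 counts per library. It read 0.101, 0.269 and 0.56 CPM in WT and 0.281, 0.549 and 1.12 in KI, and all 8 KI libraries lay above the WT median. The log2 fold change was 0.96 (SE 0.342, FDR 0.0868), and it was called in 4 of the 16 fits without 1 library. Pcdhb9 was kept in 12 of those fits, Pcdhb16 in 10 and Pcdhb18 in 8.

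**Figure D3:**
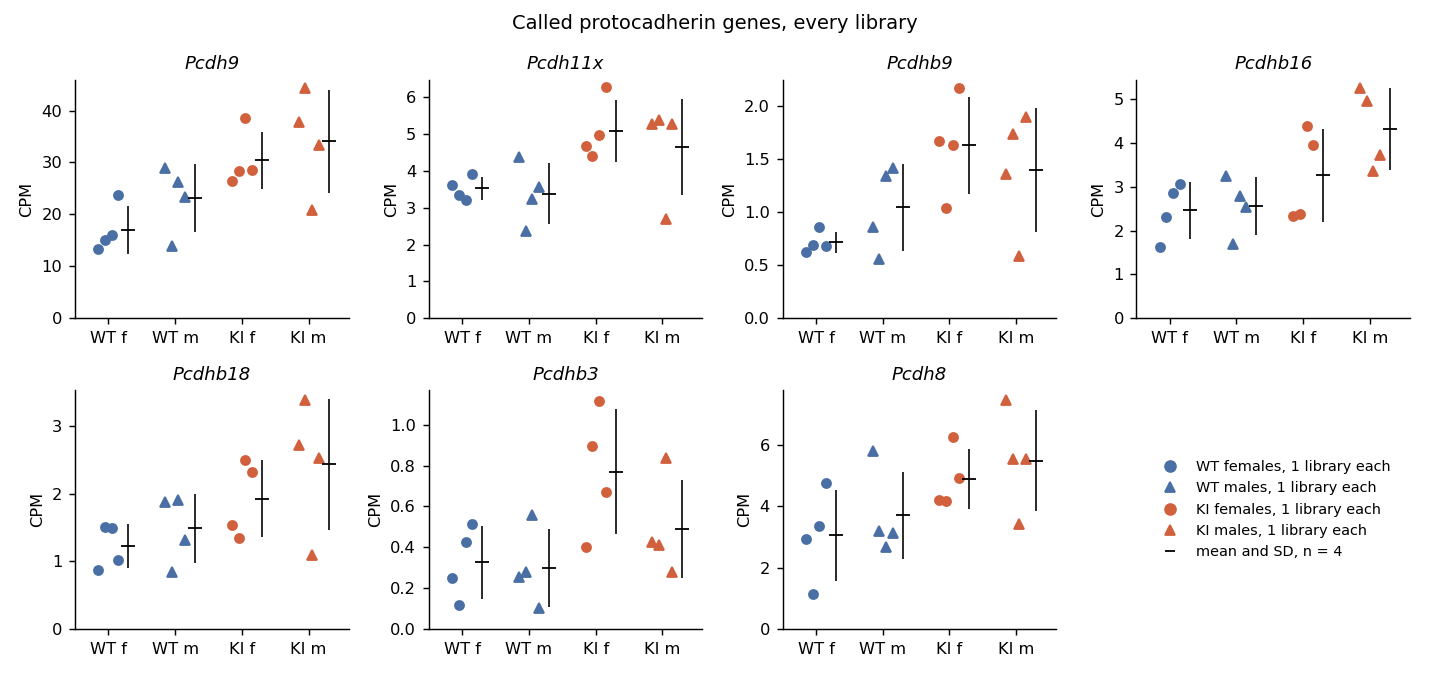
CPM of the 7 called genes in every library by genotype and sex, with the mean and SD of each group of 4 as a black bar. The KI libraries sit higher in each panel but overlap the WT libraries in all 7, and 1 KI male is the lowest KI library for Pcdh9, Pcdh11x, Pcdhb9, Pcdhb18 and Pcdh8.

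The remaining Pcdhb genes ran from a log2 fold change of -0.11 for Pcdhb22 to 0.62 for Pcdhb10, and 20 of the 21 tested genes of the cluster were above 0. Pcdhb22, the last gene of the cluster and its most abundant, read 5.97, 7.71 and 9.64 CPM in WT and 4.99, 7.29 and 9.34 in KI, with 1 of 8 KI libraries above the WT median. Its difference of -0.11 (SE 0.112, FDR 0.612) was smaller than its error. Pcdhb17, next to the called genes Pcdhb16 and Pcdhb18 on the chromosome, read 2, 2.81 and 3.96 CPM in WT and 2.01, 3.95 and 5.37 in KI, a difference of 0.35 (SE 0.175, FDR 0.233). Over the cluster the median log2 fold change was 0.43.

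No Pcdha gene was called, although all 12 tested genes were above 0, with 0.26 to 0.82 on the log2 scale and a median of 0.56. At an unadjusted p under 0.05, 7 of them were higher, their FDRs ran from 0.115 to 0.666, and DESeq2 and limma voom each called 3. Pcdha9 read 0.674, 1.11 and 3.04 CPM in WT and 1.4, 2.25 and 3.8 in KI, with all 8 KI libraries above the WT median and 1 above the highest WT library. Its log2 fold change was 0.75 (SE 0.289, FDR 0.115). Pcdha10 read 1.29, 2.65 and 3.69 CPM in WT and 2.18, 4.12 and 5.24 in KI, a difference of 0.58 (SE 0.232, FDR 0.125). Pcdha12 gave 0.49 (SE 0.211, FDR 0.156), with 2 of 8 KI libraries above every WT library. Pcdhac2, the C-type gene nearest the constant exons, read 1.56, 2.49 and 3.58 CPM in WT against 2.1, 3.43 and 5.05 in KI, with 0.46 (SE 0.197, FDR 0.157). Here too the count moved with single libraries: 8 Pcdha genes were called without KI m replicate 3, 6 without WT f replicate 4 and 3 without WT m replicate 1. These counts too stand without the share of all tested genes called in the same fits.

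The Pcdhg cluster had the smallest median difference of the 4 classes. None of its 22 genes was called by edgeR, DESeq2 or limma voom with all libraries, 1 (Pcdhgc5) was called by edgeR without WT f replicate 4, 3 had an unadjusted p under 0.05, its median log2 fold change was 0.18, and 17 genes were above 0 with a range of -0.22 to 0.41. The 2 most abundant genes had differences near 0 with small errors: Pcdhgc3 read 12.9, 19.7 and 22.5 CPM in WT and 14.9, 18.4 and 22.5 in KI, with a log2 fold change of 0.006 (SE 0.102). Pcdhgb2 read 12.6, 16.6 and 22.1 CPM in WT and 14.2, 16.4 and 18.9 in KI, with -0.015 (SE 0.0866). Both SEs are among the smallest of the family. Pcdhga12, the last A-type gene, had the lowest p of the cluster: it read 6.8, 10.2 and 14 CPM in WT and 10.4, 13.7 and 17.2 in KI, with 8 of 8 KI libraries above the WT median and 0.39 on the log2 scale (SE 0.148, FDR 0.112).

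Pcdhgb6 gave 0.33 (SE 0.145, FDR 0.163) and Pcdhga11 0.22 (SE 0.148, FDR 0.396). The 5 Pcdhg genes below 0, Pcdhga1, Pcdhga2, Pcdhgb1, Pcdhga4 and Pcdhgb2, all lie among the first 8 genes of the cluster, whose median was -0.03, while the 11 later A- and B-type genes were all above 0 with a median of 0.26. This division was drawn after the values were seen and has no test. The 3 C-type genes had a median of 0.16. Exons on the other strand overlap 11 of the 22 Pcdhg genes, and they cover all 2634 unshared bases of Pcdhga10. Whether the counting used strand is not given. Without strand, reads on such overlaps would fall on more than 1 gene and be dropped. Pcdhga10 had 42 to 136 counts per library, and the part of such partners in the counts was not tested.

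Summed over each class, the difference was largest in Pcdha and smallest in Pcdhg. The 14 Pcdha genes together read 11.6, 20.8 and 28 CPM in WT (lowest, median, highest) and 17.9, 31.2 and 42.8 in KI, a ratio of means of 1.45, and 7 of 8 KI libraries lay above the WT median. The Pcdhb sum was 23.5, 30.1 and 41 CPM in WT and 26.9, 41.6 and 48.2 in KI, a ratio of 1.25. The unclustered sum was 140.7, 181.9 and 225.2 CPM in WT and 154.8, 241.7 and 292.7 in KI, a ratio of 1.31. The Pcdhg sum was 126.7, 170.9 and 211.3 CPM in WT and 140.3, 196.3 and 237 in KI, a ratio of 1.12, with 1 KI library above the highest WT library. The genotypes overlapped in all 4 sums, and no test was made of sums over the genes chosen here.

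Within the clusters the balance shifted between genotypes in these libraries. Pcdhg genes took 74.9 to 79.7% of all clustered counts in WT, with a median of 76.6%, and 71.8 to 75.8% in KI, with a median of 72.9%. In 6 of 8 KI libraries the share was below the lowest WT share. Pcdha genes took a median of 8.89% in WT and 11.3% in KI, and all 8 KI libraries were above the WT median. The Pcdhb share was 14.1% at the WT median and 15.1% in KI.

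**Figure D4:**
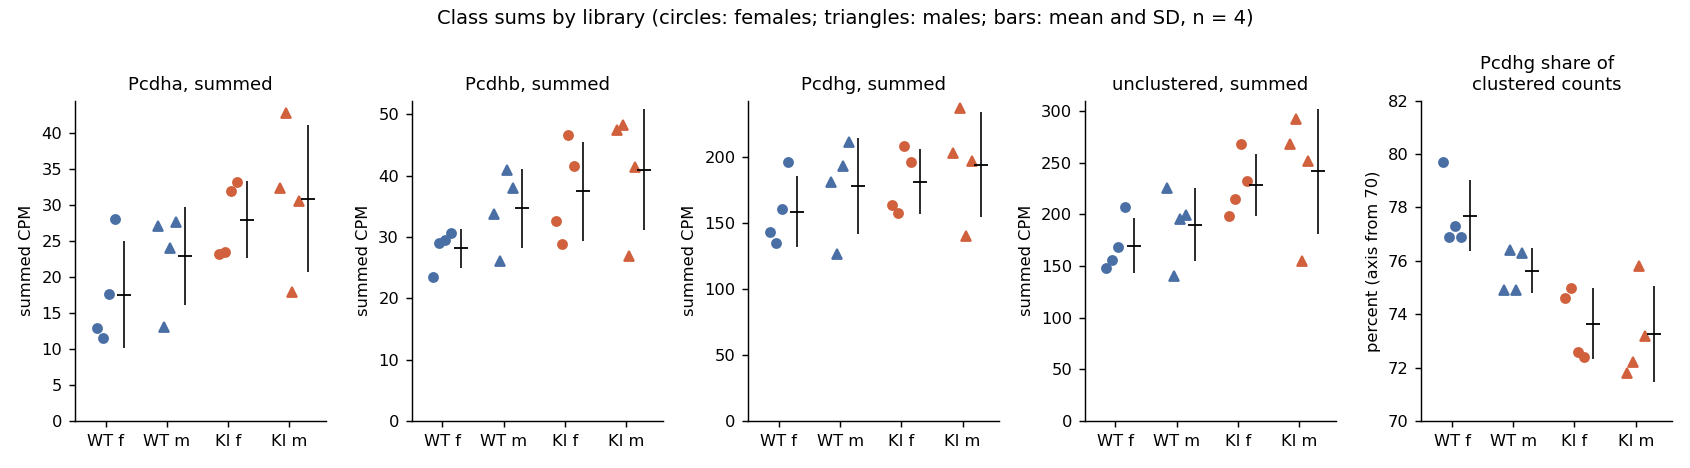
Summed CPM of each class in every library by genotype and sex, and at the right the percentage of clustered counts from Pcdhg on an axis that starts at 70. KI means are higher in the 4 sums, with 1 low KI male in each, and the Pcdhg share is below the lowest WT library in 6 of 8 KI libraries.

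Within females, 3 Pcdh genes rose in KI and none fell, against 2.82% of tested genes called higher and 4.33% called lower. At an unadjusted p under 0.05, 13 Pcdh genes were higher and 0 lower, against 9.75% and 11.1% of all tested genes. The called genes were Pcdh9 with a log2 fold change of 0.84 (SE 0.236, FDR 0.0452), Pcdhb9 with 1.18 (SE 0.366, FDR 0.0687) and Pcdh15 with 0.71 (SE 0.236, FDR 0.0888). Pcdh15, the tip link gene, read 10.3 to 24.1 CPM over the WT libraries and 14.8 to 33 over KI, and its means in females were 14.3 CPM in WT and 23.4 in KI, against 20.4 and 23.6 in males. The female count was 0 without WT f replicate 1 or 2 or KI f replicate 3, 1 without WT f replicate 3 or KI f replicate 4, 5 without WT m replicate 2 or KI m replicate 3, and 11 without WT f replicate 4. The share of all tested genes called in these fits is not given here. Without both WT f replicates 1 and 2 the female count was 0, with 0.136% of tested genes called higher and 1.53% lower.

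Markers of other cells moved in the female comparison too. Of the endothelial markers, 6 of 8 were called lower in KI females, with a median log2 fold change of -0.96, against 0.65 and 0 calls in males. Of the 7 astrocyte markers 3 were called lower in females (median -0.62, against 0.14 in males), and of the 6 tested pericyte and fibroblast markers 2 were (median -0.57, against 0.37). The endothelial sums of WT f replicates 1 and 2, 163.1 and 199.9 CPM, compare with 92.75 to 123.3 in the other WT females and 84 to 104.2 in KI females. The neuron markers had a median of 0.31 in females with 1 of 10 called, the neuroblast markers 0.56 with 2 of 6 called. The inhibitory neuron markers had a median of 0.467 in females with 2 of 10 called. The 6 tested projection neuron markers had 0.404 with 0 called. The part of these markers in the female Pcdh differences was not tested.

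Within males no Pcdh gene was called, with 0.0878% of tested genes called higher and 0.165% lower, and 7 Pcdh genes had an unadjusted p under 0.05, all higher, where 5.62% of all tested genes were higher and 6.05% lower at that level. DESeq2 and limma voom called 0 in males as well. Pcdh9 in males gave 0.57 (SE 0.232, FDR 0.343) and Pcdhb16 gave 0.77 (SE 0.271, FDR 0.275). Leaving out 1 library changed the male count only for KI m replicate 3, without which 4 Pcdh genes were called. The share of all tested genes called in males in that fit is not given here.

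A sex difference in the genotype effect was not detected for any Pcdh gene, in a test that called 0.0274% of all genes. DESeq2 and limma voom called 0 too. Pcdh15, called in females alone of the sexes, had a difference of 0.50 between them with an FDR of 0.951. The 2 genes with an unadjusted p under 0.05 were Pcdhac1, a C-type alpha gene with 0.91 in females and -0.34 in males, and Pcdhb5 with 0.64 and -0.52, both with an adjusted p of 0.77 in edgeR's quasi-likelihood test, and 5.94% of all tested genes reached that unadjusted level. Between the sexes over both genotypes no Pcdh gene was called either, by edgeR, DESeq2 or limma voom, where edgeR called 0.0604% of all genes, and 3 Pcdh genes had an unadjusted p under 0.05, against 6.56% of all tested genes. The X-linked genes Pcdh11x and Pcdh19 differed by 0.10 (SE 0.154) and 0.34 (SE 0.191), females minus males, with FDRs of 0.911 and 0.781. The gene with the smallest p was Pcdhga2, at -0.43 (SE 0.141, FDR 0.702), with means of 3.02 CPM in WT f and 2.99 in KI f against 4.25 in WT m and 3.87 in KI m.

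As a sum, the neuron markers moved with the Pcdh genes. Over both sexes 0 of the 10 markers were called, 9 were above 0 and 5 had an FDR under 0.1, at a median log2 fold change of 0.325. Map2 was the most abundant, at a mean of 192 CPM, and gave 0.367 (SE 0.0967). Stmn2, Nefl and Nefm gave -0.128, 0.014 and 0.078, each smaller than its SE (0.174, 0.096 and 0.191). The sum of the 10 neuron markers was 437.6 CPM at the WT median and 563.5 at the KI median, and the lowest libraries of each genotype, WT m replicate 2 and KI m replicate 3, were the lowest for the 70 Pcdh genes too. Per CPM of neuron marker, the Pcdh genes together read 0.749 to 1.07 CPM in WT, with a median of 0.927, and 0.775 to 0.992 in KI, with a median of 0.896. The same ratio was 0.385 in WT and 0.335 in KI for Pcdhg at the medians, and 0.0464 against 0.052 for Pcdha. With the mean log2 level of the neuron markers added to the fit, 0 Pcdh genes were called by edgeR and 5 had an unadjusted p under 0.05 in either direction. Of all 18227 tested genes, 24 were then called higher and 160 lower, and 1755 had an unadjusted p under 0.05. The median log2 fold change of the 66 Pcdh genes was -0.04, with 30 above 0, and that of all tested genes was 0.001. By class the medians were then 0.15 for Pcdha, -0.07 for Pcdhb, -0.17 for Pcdhg and 0.07 for the unclustered genes. Of the 7 called genes, 6 then had log2 fold changes of 0.11 (Pcdhb18) to 0.34 (Pcdhb9), while Pcdhb3 kept 0.99 against 0.96 without the covariate, at an FDR of 0.458 in edgeR's quasi-likelihood test. The marker level itself differs between the genotypes, so that the covariate and the genotype cannot be told apart fully, and the part of the neuron markers in the Pcdh differences was not tested otherwise.

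Inhibitory neuron markers of the olfactory bulb (10 genes) summed to 189.5 to 310.6 CPM in WT and 259.5 to 428.1 in KI, with 5 KI libraries above the highest WT library, whereas projection neuron markers (7 genes) summed to 43.1 to 196.1 in WT and 76.1 to 174 in KI. Oligodendrocyte precursor markers (6 genes) summed to 21.7 to 29.5 CPM in WT and 24.5 to 33.8 in KI, with 5 KI libraries above every WT library. Oligodendrocyte markers (7 genes) summed to 231.7 to 430.9 CPM in WT and 283.8 to 417.8 in KI, and all 8 KI libraries were above the WT median. Markers of oligodendrocytes, astrocytes, ensheathing cells, endothelial cells, pericytes and fibroblasts had no KI library above the highest WT library, which was WT f replicate 1 or 2 in each of these lists, and border macrophages had 1. The endothelial, astrocyte, ensheathing cell and pericyte and fibroblast lists had medians below 0 in females and above 0 in males. The border macrophage list did so too, at -0.017 and 0.218. The projection neuron list went the other way, with medians of 0.404 in females and -0.492 in males. Over both sexes, edgeR called 3 of 6 neuroblast markers higher in KI (Dcx, Igfbpl1 and Dlx6os1), at a list median of 0.562. It also called 1 of 10 inhibitory neuron markers higher (Meis2, list median 0.378) and 1 of 7 oligodendrocyte markers (Mog, list median 0.377). The other marker lists, projection neurons included, had no call. No marker of these lists was at 0 in all libraries, and their part in the Pcdh differences was not tested.

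**Figure D5:**
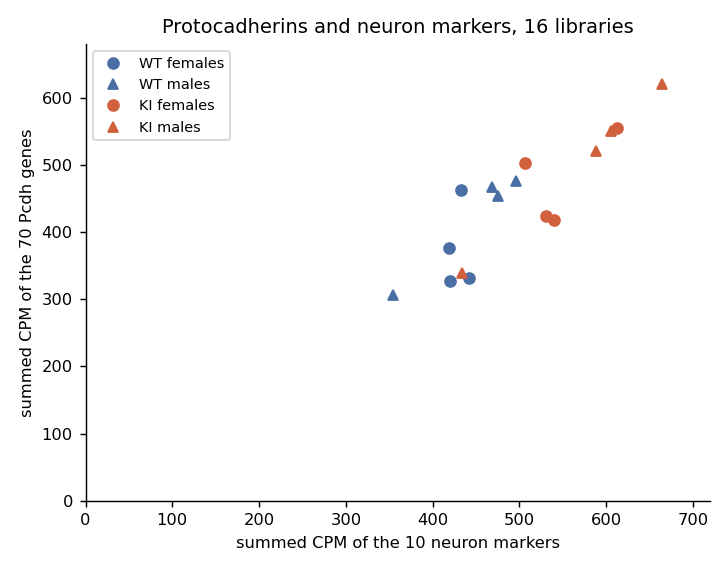
Summed CPM of the 70 Pcdh genes against the summed CPM of the 10 neuron markers, 1 point per library, coloured by genotype with circles for females and triangles for males. The KI libraries lie at 434.1 to 664.7 on the marker axis and 339.8 to 620.7 on the Pcdh axis, and 1 KI male lies among the WT libraries.

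Over both sexes, none of the genes of 3 lists of protocadherin partners and relatives was called. Of 14 factors that loop or silence the cluster promoters, such as Ctcf, the cohesin subunit Rad21 and Smchd1, 0 were called higher or lower at a median log2 fold change of -0.04, and Ctcf itself gave 0.03 (SE 0.0415). By an unadjusted p under 0.05 in edgeR, 0 of the 14 were higher and 0 lower. These are bulk levels over all cells of a library, and levels within the cells that hold the Pcdh RNA were not measured. Of 19 signalling, actin and cleavage partners, 0 were called by edgeR, with a median of -0.02, and at an unadjusted p under 0.05 there were 4 higher and 1 lower. The kinase gene Ptk2 (0.46, SE 0.131, FDR 0.0351) and Cyfip2 of the WAVE complex (0.33, SE 0.0843, FDR 0.02) passed the FDR threshold below the fold threshold. Adam10, whose product cuts protocadherins at the membrane, gave -0.02 (SE 0.0497). Of 28 tested genes of the wider cadherin superfamily, 0 were called by edgeR, 9 were higher and 1 lower at an unadjusted p under 0.05, 21 were above 0, and the median was 0.16, against 0.35 for the Pcdh genes. Among them Fat3 and Cdh10 had an FDR under 0.1 with higher levels in KI, at 0.14 (SE 0.0535) and 0.49 (SE 0.16), and Cdh19 with a lower one, at -0.48 (SE 0.171). Within females 0 genes of the first 2 lists were called by edgeR and 4 of the cadherin superfamily were, named here after their values were seen. Cdh12, Cdh6 and Clstn2 were higher in KI females, at 1.003 (SE 0.344), 0.58 (SE 0.178) and 0.56 (SE 0.184). Cdh5, the endothelial cadherin and also a member of the endothelial marker list, was lower at -0.69 (SE 0.188), against 0.48 (SE 0.194) in males.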

How the data were processed

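RNA of CD11b-selected olfactory bulb microglia was sequenced in 16 libraries (Takara SMART-Seq Stranded). Reads were mapped by the authors to GRCm39, to which human App had been added, using STAR, and raw counts per gene were deposited as whole numbers, 1 column per library. The strand setting of the counting is not given in the sources used here.

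R 4.3.3 with edgeR 4.0.16 was used. A gene entered the tests with 5 or more counts in 8 or more libraries, and counts were scaled by TMM. Genotype was tested with the quasi-likelihood test with sex as a term, within each sex and as an interaction in a fit of the 4 groups. SE was obtained as the size of the log2 fold change over the root of the F statistic. The procedure was run on simulated data with larger log2 fold changes than those of the called Pcdh genes. That run does not bear on how well changes of their size are recovered. Alternatives were DESeq2 1.42.0, limma 3.58.1 (voom), other scaling, filters and thresholds, a replicate block, added covariates, leaving out each library and, added after the data were seen, leaving out WT f replicates 1 and 2. Positions and exon lengths came from GENCODE vM39 on GRCm39, which matched all 70 genes. The paper names an older GENCODE version for its mapping, so the bases shared between genes at counting may differ from those given here. At library totals of 9052932 to 18117286 counts, 1 count equals 0.0562 to 0.115 CPM, which sets the step of the lowest genes.

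Genes named with values are those called in any comparison, the 3 most abundant of each class, the 2 of smallest p per class, and others given by class, sex or pathway. The members and gene lists were chosen with earlier results of these data known.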

Additional observations from a re-analysis of the deposited data

Results flagged for a closer look

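In 10 of 112 groups of 4 libraries examined, the highest or lowest library stood apart from the other 3 by more of the group's range than Dixon's 95% critical value. Chance gives about 1 such group in 20, or 5.6 of 112. Each first value in parentheses is the distance to the closest library over the range of all 4.

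KI m replicate 3 was low for Pcdh11x (0.96, at 2.68 CPM against 5.26 in the nearest library) and for Pcdh10 (0.856, at 33.7 against 55.1 CPM). WT m replicate 2 was low for all Pcdh genes summed (0.868, at 306.6 against 453.6 CPM) and for Pcdhb17 (0.854). KI f replicate 3 was high for Pcdh9 (0.8294, at 38.6 against 28.5 CPM, just past the critical value) and for Pcdh1 (0.874, at 43.1 against 35.5 CPM). WT m replicate 1 was high for Pcdh8 (0.835) and WT f replicate 4 for Pcdha9 (0.835, at 1.79 against 0.875 CPM). KI f replicate 1 was low for Pcdha12 (0.84) and KI f replicate 2 for Pcdhb22 (0.871, at 4.99 against 7.28 CPM).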

How the results depend on the processing

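The count of Pcdh genes called higher over both sexes, 7 as reported, was 2 at an FDR of 0.05 (Pcdh9 and Pcdh11x), 11 with limma voom, 9 with DESeq2 and 0 with the neuron marker level as a covariate. Of all tested genes, 4.33% were called higher as reported, 2.57% at an FDR of 0.05, 4.83% with limma voom and 4.56% with DESeq2. With the covariate, 24 of 18227 were called higher. In females the Pcdh count of 3 was 1 at an FDR of 0.05, 7 without a filter on low counts and 0 with the neuron marker covariate, and in males the count of 0 was 2 without the filter. Of all tested genes in females, 2.82% were called higher as reported, 1.21% at an FDR of 0.05 and 2.82% without the filter, where 39394 genes were tested. In males 0.0878% were called higher as reported and 1.1% without the filter. The share of all tested genes called in each fit without 1 library is not given here. Leaving out 1 library gave 1 to 19 Pcdh genes over both sexes, 0 to 11 in females and 0 to 4 in males. Over both sexes it gave 1 without WT m replicate 2, KI m replicate 2 or KI f replicate 4, 2 without WT f replicate 1 or KI m replicate 1, 3 without KI f replicate 3, 4 without WT f replicate 2 or 3, 16 without WT f replicate 4 and 19 without KI m replicate 3. In females it gave 0 without WT f replicate 1 or 2 or KI f replicate 3, 1 without WT f replicate 3 or KI f replicate 4, 5 without WT m replicate 2 or KI m replicate 3, and 11 without WT f replicate 4. Without both WT f replicates 1 and 2, an alternative chosen after the data were seen, the counts were 1 over both sexes and 0 in females. Pcdh9 was called in 25 of 26 alternatives, the neuron marker covariate being the exception. No Pcdh gene was called lower in KI, between the sexes or in the interaction under any alternative.

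With the neuron marker covariate the log2 fold changes of Pcdhb17, Pcdhgc3 and Pcdhga11 turned to -0.073, -0.117 and -0.04. Pcdhgb2 and Pcdhgc3, both near 0, changed sign in 7 and 5 of the 16 fits without 1 library, with ranges of -0.052 to 0.045 and -0.061 to 0.064. The class ratios kept their direction and moved by less than the spread between libraries under the other scalings and without any 1 library. The cause of these changes was not tested.

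The replicate numbers did not pair the libraries: the deviations of same-numbered libraries correlated at -0.33 to 0.13 over 8 pairs, and 5 of 16 libraries correlated best with their own number. A replicate block gave 6 genes over both sexes, 5 of them shared with the 7, and 2 in females. Depth sets the step between values: Pcdhb3 had 1 to 13 counts per library.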
